A study of Homo sapiens with 9 samples.

Results

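The comparison described here set cells in which ATG7 had been knocked out against cells that carried a scrambled guide, in DMS273, a human cell line of small cell lung cancer. It takes 6 of the 9 RNA sequencing libraries of the series, chosen by their labels: 3 libraries of the scrambled-guide control, whose genotype is labelled WT, and 3 of the ATG7 knockout (ATG7 KO). The other 3 libraries, with ATG7 and SQSTM1 both knocked out, entered the model only to estimate the spread between libraries, and their values are given at a single place below. The knockouts were made with CRISPRv2, per the labels. The cells grew in RPMI 1640 with 10% fetal bovine serum, and the labels name no drug for them. Whether the knockout cells were a clone or a pool is not given in the labels, and neither is whether the libraries of a group came from separate cultures. Without separate cultures, p-values reflect only the spread between these libraries, which may be technical.

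ATG7 is the E1-like enzyme of autophagy. It activates the ubiquitin-like protein ATG12, which is joined to ATG5, and the LC3 and GABARAP proteins, which are joined to a membrane lipid, and without it autophagosomes form poorly. Small cell lung cancer is a neuroendocrine tumour, and its cell lines are grouped by lineage transcription factors, among them NEUROD1 and POU2F3, or by YAP1. Cells of the neuroendocrine kind usually express few interferon-stimulated and antigen presentation genes, whereas mesenchymal variants express more of them.

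The control libraries held 28675576 to 32538275 counts and the ATG7 KO libraries 29791807 to 31895461. Mitochondrially encoded genes took 3.87% to 5.499% of the counts in these 6 libraries. Levels are given as CPM, counts scaled to the size of the library with TMM factors, in the order of replicates 1, 2 and 3. A gene was called changed at a Benjamini-Hochberg adjusted p under 0.05 in edgeR's quasi-likelihood test over 18847 genes, and log2 differences are ATG7 KO minus control with their standard error (SE). Sizes of a rise or fall given without a unit are on this log2 scale. These are bulk libraries, so fewer cells of a kind and less RNA per cell cannot be told apart.

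The targeted gene was read first. ATG7 (ENSG00000197548, GRCh38 chromosome 3, 11272309 to 11557665) stood at 28.1, 26.4 and 26.8 CPM in the scrambled-guide libraries against 11.98, 9.99 and 12.99 CPM after ATG7 knockout. All ATG7 KO libraries lay below all control libraries, a log2 difference of −1.22 ± 0.08 (edgeR adjusted p = 2.69e-11). The guide's site is not given in the sources used here, so the counts say nothing of how much working protein was left. The other genes of the conjugation pathway moved little. ATG3, the E2-like enzyme that takes LC3 from ATG7, rose by 0.42 ± 0.03 on the log2 scale, and ATG5 rose by 0.38 ± 0.04. ATG12 stood at 39.1, 38.2 and 37.97 CPM in control against 37.8, 38.3 and 37.6 CPM in ATG7 KO and did not pass the test (adjusted p = 0.697, edgeR). GABARAP, an LC3-like protein, stood at 122, 128 and 122 CPM in control against 92.1, 93.2 and 89.2 CPM in ATG7 KO and was 1.35-fold lower. Among 44 tested genes of the core autophagy machinery, 25 rose and 12 fell. The members that fell at least 2-fold were ATG7 itself, ATG16L2, a relative of the ATG16L1 scaffold (13.3 to 6.59 CPM), and WIPI1, which binds the phosphoinositide of forming autophagosomes (21.2 to 10.4 CPM). Of 26 tested autophagy receptor genes and their partners, 12 rose and 8 fell, 1 of the falls at least 2-fold, with a median of 0.09. SQSTM1, the gene of the autophagy receptor p62, differed by 0.05 and did not pass the test. OPTN (0.57 ± 0.06), CALCOCO2 (0.52 ± 0.04), TAX1BP1 (0.38 ± 0.03) and NBR1 (0.32 ± 0.03) rose, and the mitophagy receptor BNIP3 fell by 0.71.

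Across all tested genes, 10688 passed the threshold (56.7%), 5348 of them higher in ATG7 KO (28.4%) and 5340 lower (28.3%). At least 2-fold, 795 genes were higher (4.22%) and 1561 lower (8.28%). At least 4-fold, 179 were higher (0.95%) and 279 lower (1.48%), and at least 8-fold, 50 were higher (0.265%) and 44 lower (0.233%). In 11769 genes (62.4%) no library of one group reached the range of the other. The median log2 difference over all tested genes was −0.02. These shares are the background against which each group of genes below is read.

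**Figure D1:**
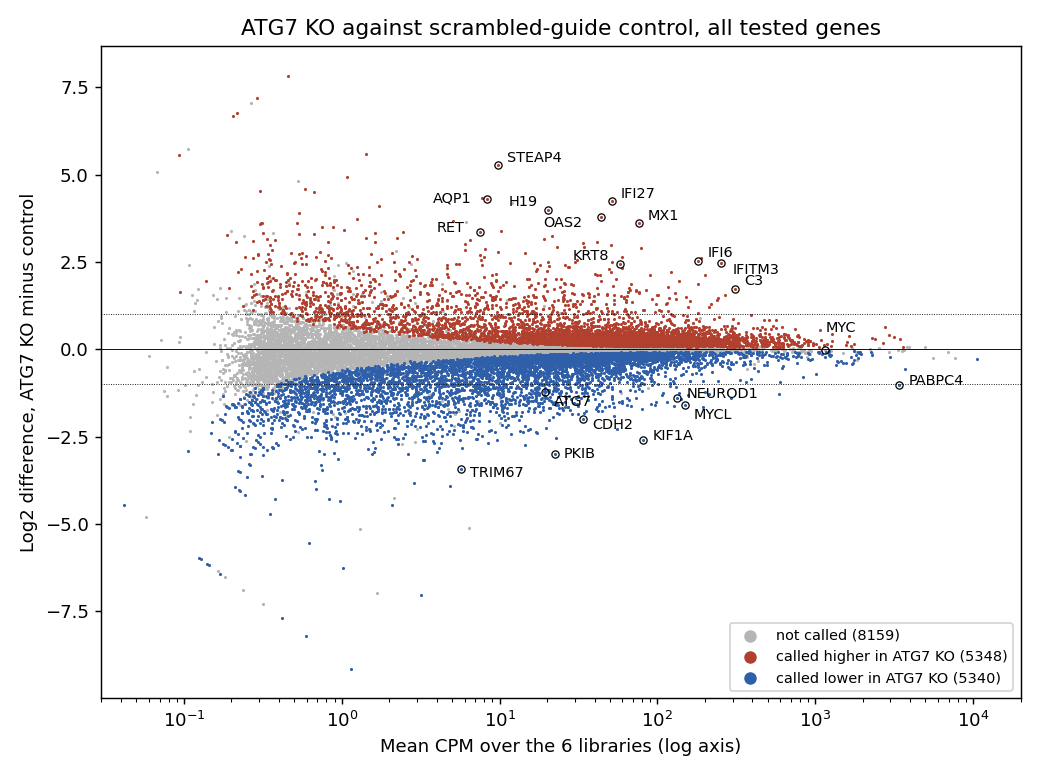
Log2 difference (ATG7 KO minus control) of each tested gene against its mean CPM over the 6 libraries (log axis), with called genes in colour and some named genes marked. Genes at least 2-fold lower number 1561 and those at least 2-fold higher 795 (dotted lines), and among genes above 5 CPM STEAP4, AQP1, IFI27 and H19 lie near its upper edge.

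Among genes above 5 CPM the largest rise was STEAP4, a metalloreductase of iron and copper, at 0.58, 0.551 and 0.352 CPM in the scrambled-guide libraries against 18.5, 19.99 and 18.98 CPM after ATG7 knockout. Next came XAF1, an interferon-induced antagonist of inhibitors of apoptosis, at 0.824, 0.551 and 0.832 CPM in control against 14.6, 15.8 and 14.1 CPM in ATG7 KO, and AQP1, a water channel, at 0.458, 0.999 and 0.993 CPM in control against 15.97, 15.8 and 15.9 CPM in ATG7 KO. In each of these genes the control libraries were close to no expression and the ATG7 KO libraries were alike. Of the 20 largest rises named by rule, 11 were interferon-stimulated genes (XAF1, IFI27, OAS2, MX1, MX2, IFIT1, OAS1, LGALS9, ISG15, BST2 and IFITM1). The others included the acute phase genes SAA1 (3.67 ± 0.16), LRG1 (3.38 ± 0.13) and LCN2 (3.14 ± 0.14), the imprinted noncoding RNA H19 (3.99 ± 0.10), the receptor tyrosine kinase RET and the carboxypeptidase CPA4 (2.94 ± 0.06). RET, the receptor for GDNF family ligands, stood at 1.37, 0.93 and 1.7 CPM in the scrambled-guide libraries against 13.8, 13.8 and 13.6 CPM after ATG7 knockout. LINC02574, a noncoding RNA whose gene lies near IFI6 on chromosome 1, varied more, at 0, 6.72 and 5.89 CPM in control against 39.8, 27.8 and 49.5 CPM in ATG7 KO, with 1 control library at 0.

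Among the 20 largest falls were genes of neurons and secretory cells. TRIM67, a brain-enriched ubiquitin ligase, stood at 10.9, 10.3 and 10.2 CPM in the scrambled-guide libraries against 1.06, 1.04 and 0.798 CPM after ATG7 knockout. SCRT1, a neural zinc finger repressor, stood at 5.77, 6.44 and 5.83 CPM in control against 0.58, 0.704 and 0.702 CPM in ATG7 KO. The falls further included the sterol-sensing domain gene DISP3 (−3.16 ± 0.21), SEZ6 (−2.83 ± 0.14), the complexin CPLX2 (−2.75 ± 0.08), the vesicle GTPase RAB3C (−2.70 ± 0.15), the axon-protective enzyme NMNAT2 (−2.62 ± 0.17), the vesicle motor KIF1A (−2.60 ± 0.04), the endocytic protein AMPH (−2.59 ± 0.10) and the basement membrane collagen COL4A3 (−2.82 ± 0.14). KIF1A stood at 136, 142 and 142 CPM in the scrambled-guide libraries against 24.2, 22.97 and 21.95 CPM after ATG7 knockout. NOX5, an NADPH oxidase, had unequal control libraries of 9.7, 8.06 and 4.35 CPM against 1.3, 1.21 and 0.925 CPM. RAB4B-EGLN2 and ABHD14A-ACY1 are also among these 20, but they are readthrough genes that share exons with their neighbours, so their counts are uncertain, and both calls were lost in fits that left out single libraries.

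Interferon signalling runs from ligands through receptors, kinases and STAT factors to effector genes, and the libraries were read in that order. No ligand gene passed the filter on low counts. IFNL1, an interferon lambda, had 0, 0 and 2 counts in the control libraries and 12, 8 and 10 in the ATG7 KO libraries. IFNB1 had 0, 2 and 0 counts against 3, 3 and 4, and IFNE had 2, 0 and 3 against 5, 23 and 14. IFNG had 2, 2 and 0 counts and IFNL3 had 0, 2 and 0 in the control libraries, and neither had any in ATG7 KO. IFNL2 and IFNK had no count in any of the 6 libraries. In IFNB1, IFNL1 and IFNE every ATG7 KO library was above every control library, but no library held more than 23 counts of any of them, and none was tested.

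Receptor genes were expressed in control and moved in both directions. IFNAR1 differed by 0.08 and did not pass the test (edgeR adjusted p = 0.0657), but it did with relative log expression scaling (0.0328) and without control replicate 1 (0.0242). IFNAR2 fell, from 37.2, 35.8 and 36.4 CPM to 28.7, 27.7 and 21.7 CPM. IFNGR1, the ligand-binding chain for interferon gamma, rose from 81.1, 82.8 and 79.5 CPM to 164, 163 and 159 CPM, and the interferon lambda receptor IFNLR1 rose by 0.61 ± 0.13 at a low level. Of the kinases, JAK1 rose by 0.19 ± 0.04, TYK2 fell by 0.19 and JAK2 did not pass the test (0.11). Of the factors they activate, STAT2 stood at 20.2, 21.4 and 19.98 CPM in control against 29.3, 30.9 and 30.6 CPM in ATG7 KO and rose by 0.56 ± 0.06, and STAT3 rose by 0.57 ± 0.03. SOCS3, a feedback inhibitor, rose by 1.78 ± 0.13, while SOCS1 did not pass the test (0.10). Over the 16 tested genes of this group 9 rose and 3 fell, with a median of 0.20.

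Of 22 tested nucleic acid sensors and adaptors, 18 rose and 1 fell, 9 of the rises at least 2-fold, with a median of 0.69. The RNA sensors were among them. DDX58, which encodes RIG-I, stood at 9.73, 8.61 and 8.26 CPM in the scrambled-guide libraries against 43.4, 48.5 and 45.2 CPM after ATG7 knockout. IFIH1, which encodes MDA5, stood at 16.9, 18.4 and 15.8 CPM in control against 50.1, 50.004 and 50.9 CPM in ATG7 KO, DHX58 rose by 1.67 ± 0.13 and the endosomal receptor TLR3 by 1.16 ± 0.11. The DNA sensor CGAS rose by 0.89 ± 0.11 and its partner STING1 by 0.35 ± 0.05, whereas the mitochondrial adaptor MAVS stood at 106, 103 and 104 CPM in control against 103, 104 and 98.4 CPM in ATG7 KO and did not pass the test. Of 10 tested interferon regulatory factors and their binding proteins, 5 rose and 4 fell, 2 and 2 of them at least 2-fold, with a median of −0.03. IRF1 rose by 1.06 ± 0.05 and IRF9, the DNA-binding partner of STAT2, by 1.08 ± 0.10. IRF8, a factor of myeloid cells, fell from 2.99, 2.48 and 3.04 CPM to 1.09, 1.01 and 0.861 CPM, and IRF7, with at most 4 counts in a library, was not tested.

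Antiviral effectors rose nearly without exception. Of 43 tested members, 41 rose and none fell, and 34 rose at least 2-fold, against 28.4% and 4.22% of all tested genes. The median log2 difference was 1.94. IFI27, a mitochondrial interferon-stimulated protein, stood at 5.28, 5.31 and 4.96 CPM in the scrambled-guide libraries against 93.1, 99.8 and 98.8 CPM after ATG7 knockout, a log2 difference of 4.23 ± 0.06 (edgeR adjusted p = 3.26e-22). MX1, a GTPase that blocks influenza and other viruses, stood at 12.3, 11.99 and 10.6 CPM in control against 141, 144 and 138 CPM in ATG7 KO. The OAS enzymes, which respond to double-stranded RNA, rose together: OAS1 stood at 6.59, 7.55 and 7.91 CPM in control against 57.9, 61.1 and 61.1 CPM in ATG7 KO, OAS2 rose by 3.80 ± 0.07 and OAS3 by 2.22 ± 0.04. The 3 libraries of each group lay close together and apart from the other group in each of these genes.

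The IFIT proteins bind foreign RNA ends, and IFIT1 stood at 9.98, 8.44 and 8.1 CPM in the scrambled-guide libraries against 72.1, 75.5 and 73.4 CPM after ATG7 knockout, with IFIT3 (2.64 ± 0.07) and IFIT2 (2.29 ± 0.07) behind it. The membrane proteins IFITM1 (2.91 ± 0.06) and BST2 (2.92 ± 0.06), which hold back virus entry and release, rose about as much. Per kilobase of exon, the effector with the highest level in ATG7 KO was IFI6, whose mean went from 61.6 to 358 CPM per kb, and it stood at 56.98, 48.8 and 54.2 CPM in control against 324, 313 and 291 CPM in ATG7 KO. Other members rose by less. ADAR, the RNA editor, rose by 0.56 ± 0.03 from 382, 398 and 386 CPM, and EIF2AK2, the kinase PKR, rose by 0.56 ± 0.03 from 155, 156 and 153 CPM. Among the members that did not pass the test was TRIM34 (1.4, 1.21 and 1.25 CPM in control against 3.21, 3.45 and 4.05 CPM in ATG7 KO, edgeR adjusted p = 0.126, or 1.48e-06 in a fit of the 6 libraries alone). IFITM, HLA and IFIT genes have near-identical relatives, and how reads shared between such genes were counted is not given in the sources used here, so values of single members of these families are uncertain.

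Promoters of 4 effectors are shown because they carry the sequence through which STAT2 and IRF9 are known to act, the interferon-stimulated response element. Each is the 250 bases before the RefSeq start of the gene (GRCh38.p14), 5′ to 3′ on the gene's strand, and capitals mark matches to a simple form of the element, GAAA repeated after any 2 bases, on either strand and with overlaps.
IFI27, chr14:94110486-94110735, plus strand: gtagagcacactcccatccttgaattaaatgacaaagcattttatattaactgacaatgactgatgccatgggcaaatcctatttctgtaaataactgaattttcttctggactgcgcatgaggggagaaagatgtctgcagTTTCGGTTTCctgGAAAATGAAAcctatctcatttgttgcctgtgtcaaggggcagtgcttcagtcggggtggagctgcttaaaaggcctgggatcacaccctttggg
IFIT1, chr10:89392373-89392622, plus strand: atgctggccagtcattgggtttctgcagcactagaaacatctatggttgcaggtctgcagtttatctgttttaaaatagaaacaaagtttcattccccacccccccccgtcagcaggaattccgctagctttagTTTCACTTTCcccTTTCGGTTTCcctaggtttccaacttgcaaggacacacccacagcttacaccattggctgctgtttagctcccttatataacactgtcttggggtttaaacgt
IFI6, chr1:27672193-27672442, minus strand: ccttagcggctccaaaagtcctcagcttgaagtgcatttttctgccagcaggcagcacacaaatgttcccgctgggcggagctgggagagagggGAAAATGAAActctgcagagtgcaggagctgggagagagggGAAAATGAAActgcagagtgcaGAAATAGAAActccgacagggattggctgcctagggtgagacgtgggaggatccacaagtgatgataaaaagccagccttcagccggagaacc
BST2, chr19:17405631-17405880, minus strand: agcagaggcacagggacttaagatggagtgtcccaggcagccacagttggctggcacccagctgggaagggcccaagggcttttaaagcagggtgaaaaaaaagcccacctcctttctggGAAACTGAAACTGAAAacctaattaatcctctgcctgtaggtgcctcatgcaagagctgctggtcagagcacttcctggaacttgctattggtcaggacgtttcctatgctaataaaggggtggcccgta
IFI6 held 3 matches and each of the others 2. In windows of 300 bases (250 before and 50 after the start), RefSeq promoters were matched to 12162 of the tested genes, and 2.84% of them held the motif, against 3.65% of all 27305 RefSeq promoters. It was in 10.3% of the promoters of genes at least 2-fold higher (51 of 497) and in 14.95% of those at least 4-fold higher (16 of 107). Among falls it was in 1.81% of those at least 2-fold lower (17 of 937) and in 3.05% of those at least 4-fold lower (5 of 164). On the antiviral list 18 of 28 matched promoters held it. Of the 345 tested genes with the motif, 167 rose and 70 fell, with a median of 0.15, and of the 11817 without it 3957 rose and 3582 fell, with a median of 0.01. The NF-kB motif, searched as GGGA, any base, TTTCC, was in 0.625% of tested promoters, in 2.21% of those at least 2-fold higher and in 0.213% of those at least 2-fold lower. The motifs CAGATG, bound by bHLH factors such as NEUROD1, and GGAATG, bound by TEAD factors, were in 16.1% and 16.3% of the promoters at least 2-fold higher, in 12.6% and 9.93% of those at least 2-fold lower, and in 9.95% and 10.7% of all tested promoters. A match is a stretch of letters and not a measured binding site, and no test was made on these shares.

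Enzymes of the ISG15 system rose with the protein they attach or remove. ISG15, a ubiquitin-like protein that is joined to other proteins, stood at 13.0, 9.99 and 11.4 CPM in the scrambled-guide libraries against 91.2, 91.4 and 88.3 CPM after ATG7 knockout. Its conjugating enzyme UBE2L6 rose by 1.46 ± 0.04, its ligase HERC5 by 0.56 ± 0.05 and the related gene HERC6 by 1.90 ± 0.07. USP18, the protease that removes ISG15 and damps the receptor, rose by 1.19 ± 0.08. All 6 tested guanylate binding proteins rose, with GBP1 at 22.5, 25.8 and 21.1 CPM in control against 85.5, 80.2 and 78.97 CPM in ATG7 KO and GBP2 at 49.8, 52.1 and 51.6 CPM in control against 86.5, 85.9 and 82.95 CPM in ATG7 KO. Among genes of PARP-family ADP-ribosyltransferases and DTX3L, the ubiquitin ligase that partners PARP9, 4 rose at least 2-fold. PARP9 rose by 1.78 ± 0.05, DTX3L by 1.29 ± 0.04, PARP14 by 1.61 ± 0.03 and PARP10 by 1.20 ± 0.07, while the whole group of 16 had 9 rises, 4 falls and a median of 0.10. Of the Schlafen genes, SLFN5 rose by 1.64 ± 0.06 and SLFN11, whose product stalls replication under DNA damage, rose from 22.2, 21.2 and 21.2 CPM to 28.3, 28.9 and 27.4 CPM.

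**Figure D2:**
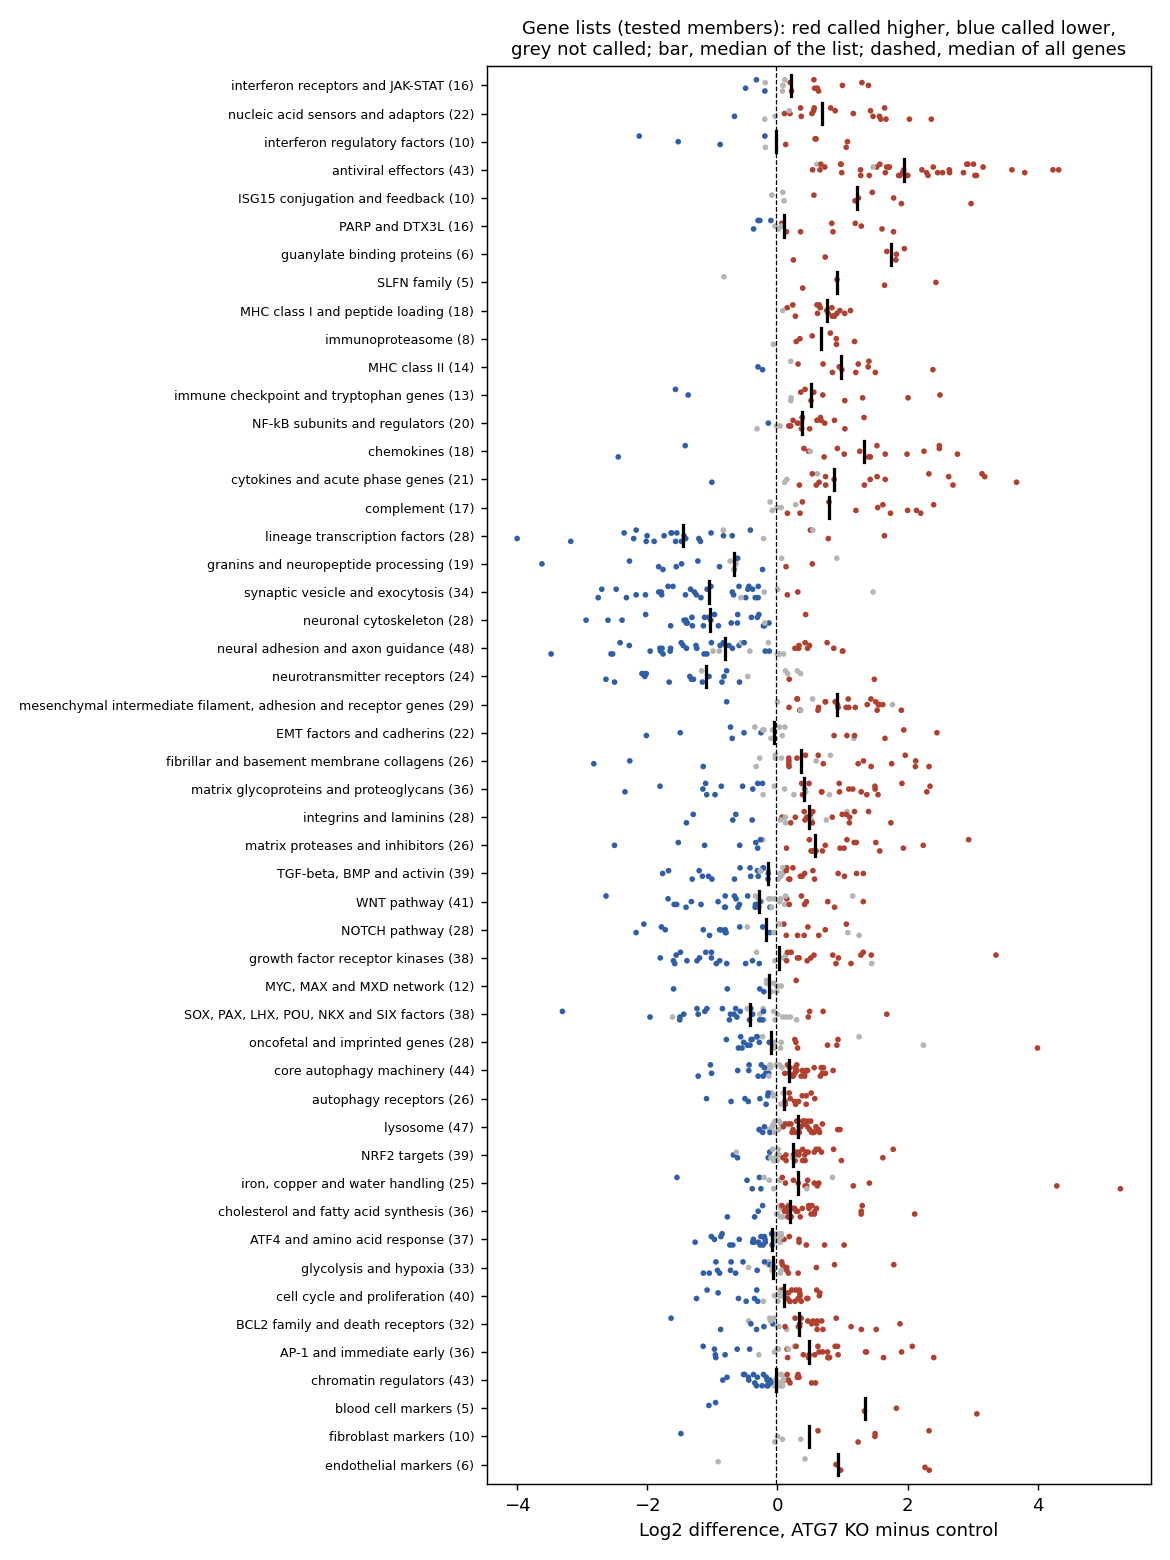
Log2 difference (ATG7 KO minus control) of each tested member of the gene lists with at least 5 tested members, 1 row per list, with the list's median as a bar and the median of all tested genes as a vertical line. Antiviral effectors lie at a median of 1.94 and lineage transcription factors at −1.46, while lists of cell cycle, chromatin and glycolysis genes lie near the median of all genes.

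Genes that present antigens rose by smaller factors. Of 18 tested MHC class I and peptide loading genes, 17 rose, but only 2 rose at least 2-fold, and the median was 0.77. HLA-B stood at 205, 216 and 226 CPM in the scrambled-guide libraries against 392, 386 and 392 CPM after ATG7 knockout, and B2M, the shared light chain, at 400.3, 403 and 404 CPM in control against 732, 705 and 729.5 CPM in ATG7 KO. TAP1, a chain of the peptide transporter, rose by 1.12 ± 0.04, and NLRC5, the transactivator of class I genes, by 0.78 ± 0.04. The immunoproteasome subunit PSMB9 rose by 1.18 ± 0.06 and PSMB8 by 0.91 ± 0.04.

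MHC class II genes, which cells other than antigen-presenting cells express mainly after interferon gamma, rose too. Of 14 tested genes of the class and its regulators, 11 rose, 6 at least 2-fold, and 2 fell. CD74, the invariant chain, stood at 31.8, 32.4 and 32.4 CPM in control against 87.2, 95.1 and 91.6 CPM in ATG7 KO. HLA-DRA stood at 8.42, 8.68 and 7.81 CPM in control against 21.6, 22.4 and 21.5 CPM in ATG7 KO, and CIITA, the transactivator of the class, rose by 0.99 ± 0.11. Of 13 tested genes of immune checkpoints and tryptophan breakdown, 9 rose and 2 fell, 4 and 2 of them at least 2-fold. CD274, which encodes PD-L1, rose at a level near 1 CPM, from 1.34, 0.517 and 0.736 CPM to 1.67, 1.98 and 1.72 CPM, and CD47, a signal against phagocytosis, rose from 119.6, 111 and 116 CPM to 158, 151 and 156 CPM. TDO2, a tryptophan dioxygenase, rose by 2.01 ± 0.11, and the adhesion gene NECTIN3 fell by 1.37.

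Inflammatory genes rose next to them. Of 20 tested NF-kB subunits and regulators, 16 rose and 1 fell, most by small factors (median 0.38, 2 at least 2-fold). The inhibitors TNFAIP3 and NFKBIA rose by 0.49 ± 0.07 and 0.38 ± 0.04, and the subunit RELA was the gene that fell (−0.14 ± 0.05), a call that was lost without control replicate 2 (edgeR adjusted p = 0.0769) or ATG7 KO replicate 3 (0.155). Chemokines moved further: 15 of 18 tested rose, 11 at least 2-fold. CCL5, which draws T cells, stood at 8.88, 8.27 and 10.1 CPM in the scrambled-guide libraries against 49.6, 53.1 and 49.8 CPM after ATG7 knockout, and CCL2, which draws monocytes, at 32.9, 36.4 and 34.5 CPM in control against 87.96, 97.7 and 87.7 CPM in ATG7 KO. CXCL8 rose by 1.65 ± 0.14, while the interferon-induced CXCL10 went from 3.05, 2.96 and 2.63 CPM to 4.61, 4.16 and 3.29 CPM, a call that was lost without control replicate 3 (edgeR adjusted p = 0.0632) or ATG7 KO replicate 1 (0.085). CXCL12 and CXCL14, chemokines made without inflammation, fell by 1.42 and 2.44. IL6 was near the limit of detection, at 0.122, 0.276 and 0.256 CPM in control against 1.09, 1.34 and 1.82 CPM in ATG7 KO.

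Complement genes, whose products tag and lyse cells, rose in 12 of 17 tested members, and none fell. C3, the central component, stood at 146, 143 and 141 CPM in the scrambled-guide libraries against 473, 482 and 476 CPM after ATG7 knockout. CFB, its partner in the alternative pathway, rose by 2.00 ± 0.07, the C1 proteases C1R and C1S by 1.62 ± 0.06 and 1.54 ± 0.05, and CFI, the protease that inactivates C3b, by 2.40 ± 0.16. C4A and C4B rose by 2.20 ± 0.10 and 2.13 ± 0.06, but they are near-identical copies and their counts cannot be told apart with certainty. CD55, a membrane inhibitor of complement, differed by −0.08 and did not pass the test. SAA1, LCN2 and LRG1, the acute phase genes already named, were low in control too, with SAA1 at 0.702, 0.689 and 0.8 CPM in control against 9.59, 8.18 and 10.3 CPM in ATG7 KO. SAA1 has a near-identical copy, SAA2, and its count is uncertain.

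**Figure D3:**
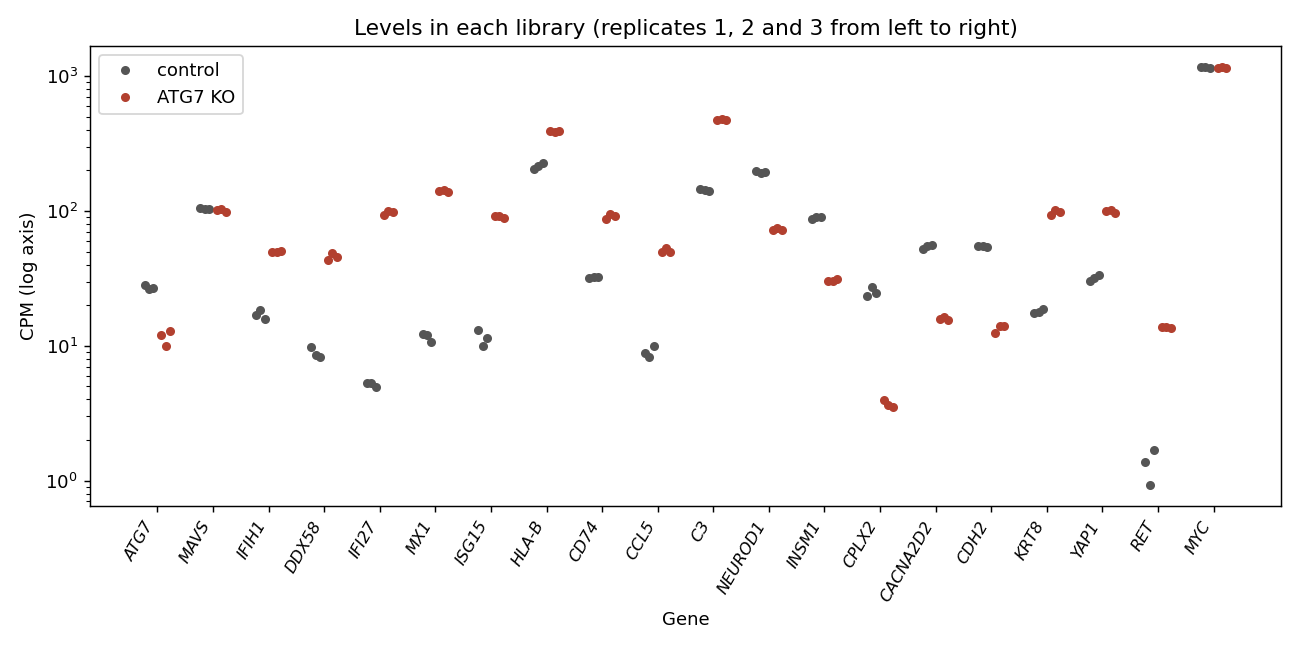
CPM (log axis) of 20 named genes in each of the 6 libraries, control and ATG7 KO in different colours, 1 point per library. In every gene plotted except MYC and MAVS the points of both groups lie apart.

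Neuroendocrine and neuronal genes fell as a broad set. Of 28 tested lineage transcription factors, 22 fell and 3 rose, 19 of the falls at least 2-fold, against 28.3% and 8.28% of all tested genes. NEUROD1, the factor that defines one neuroendocrine subtype, stood at 198, 190.2 and 195 CPM in the scrambled-guide libraries against 72.7, 74.4 and 72.8 CPM after ATG7 knockout. INSM1, a repressor found in neuroendocrine cells, stood at 87.5, 90.4 and 89.9 CPM in control against 30.3, 30.02 and 31.4 CPM in ATG7 KO, and POU3F1, a POU factor of neural cells, at 166, 173 and 170.4 CPM in control against 60.5, 57.7 and 61.96 CPM in ATG7 KO. PROX1 fell by 2.02, MYT1 by 2.35 and ST18 by 1.74. POU2F3 had at most 6 counts in a library. UNCX, a homeobox gene, had 63, 58 and 65 counts in the control libraries and 2, 0 and 0 in the ATG7 KO libraries. YAP1, the coactivator that marks non-neuroendocrine lines, was the largest rise of the list, from 30.2, 31.9 and 33.4 CPM to 99.7, 103 and 95.9 CPM, and REST, the repressor of neuronal genes, rose by 0.51 ± 0.05.

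Genes of dense-core granules followed in part. Of 19 tested, 12 fell and 2 rose. CHGB, a granin, stood at 35.9, 36.8 and 35.7 CPM in control against 10.7, 9.99 and 9.95 CPM in ATG7 KO, CHGA fell by 1.76 and SCG3 by 2.27. SCG2 went the other way, from 8.39, 8.58 and 8.07 CPM to 11.4, 13.2 and 11.7 CPM. UCHL1, a deubiquitinating enzyme of neurons, went from 171 to 149 CPM per kb and fell by 0.20. CPE, a carboxypeptidase of prohormones, fell by 0.61.

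The machinery of transmitter release fell in 28 of 34 tested genes, 18 of them at least 2-fold, with a median of −1.05. CPLX2, which clamps SNARE complexes, stood at 23.5, 27.3 and 24.5 CPM in the scrambled-guide libraries against 3.99, 3.62 and 3.54 CPM after ATG7 knockout. SNAP25, a SNARE of the plasma membrane, stood at 9.73, 8.72 and 10.5 CPM in control against 2.52, 1.61 and 2.3 CPM in ATG7 KO. STX1A fell by 1.33, the vesicle protein SYP by 1.17, the priming factor UNC13A by 2.03 and RIMS3 by 1.41, RIMS3 from a mean of 427 CPM. SYT1, the calcium sensor of fast release, rose by 0.31 ± 0.08. The neuronal cytoskeleton fell in 26 of 28 tested genes, with TUBB3 at 71.8, 69.02 and 71.3 CPM in control against 31.3, 32.6 and 32.5 CPM in ATG7 KO and the growth cone protein GAP43 at 23.8, 24.7 and 23.8 CPM in control against 9.86, 9.46 and 9.92 CPM in ATG7 KO.

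Ion channels and receptors of excitable cells fell as families, grouped here by gene symbol and limited to protein-coding genes. Of 54 tested potassium channel genes, 36 fell and 5 rose, 23 of the falls and 1 of the rises at least 2-fold. KCNA2, a voltage-gated channel, stood at 17.9, 18.3 and 19.3 CPM in control against 3.72, 3.99 and 4.5 CPM in ATG7 KO, KCND3 at 10.7, 10.8 and 11.3 CPM in control against 2.59, 2.35 and 3.03 CPM in ATG7 KO, and the calcium-activated KCNN3 fell by 2.44. KCNJ8, a subunit of ATP-sensitive channels, rose from 0.458, 0.758 and 0.448 CPM to 2.29, 2.52 and 2.46 CPM. Of 24 calcium and sodium channel genes 16 fell. CACNA2D2, an auxiliary calcium channel subunit, stood at 52.6, 55.5 and 56.03 CPM in control against 15.8, 16.4 and 15.6 CPM in ATG7 KO, and CACNB4 fell by 2.16. CACNA1G, a T-type channel, rose by 1.55 ± 0.16.

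Of 35 tested transmitter receptor genes, 19 fell and 4 rose. Of the GABA receptor subunits, GABRB2 stood at 16.5, 19.1 and 16.7 CPM in control against 5.22, 3.92 and 3.83 CPM in ATG7 KO and GABRA5 fell by 1.35. The glutamate receptor gene GRIK3 fell as well, from 11.02, 13.7 and 11.2 CPM to 2.93, 2.72 and 3.03 CPM. CHRNA9, a nicotinic subunit, rose by 1.49 ± 0.11. Among synaptotagmins SYT2 and SYT14 fell by 1.98 and 1.82, while SYT12 rose from 5.65, 5.51 and 5.22 CPM to 19.8, 20.2 and 17.5 CPM.

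**Figure D4:**
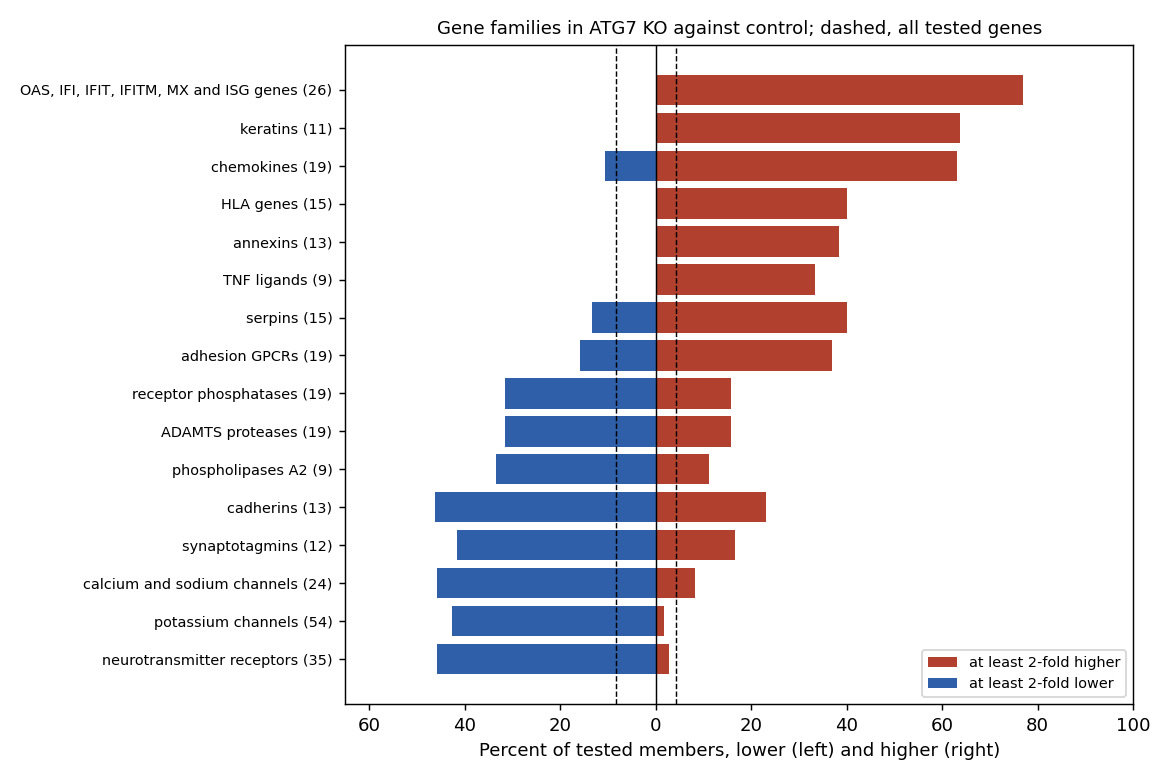
Share of tested members at least 2-fold higher (right) and at least 2-fold lower (left) in ATG7 KO for 16 gene families of at least 8 tested members, as bars from 0, with the number tested in brackets and the shares of all tested genes as dashed lines. The 26 genes named OAS, IFI, IFIT, IFITM, MX or ISG reach 76.9% higher, and potassium channels reach 42.6% lower.

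Genes of neural adhesion and axon guidance were more mixed. Of 48 tested, 29 fell and 10 rose. NCAM1, the neural cell adhesion molecule also known as CD56, stood at 38.2, 37.8 and 41.01 CPM in the scrambled-guide libraries against 6.45, 7.51 and 5.97 CPM after ATG7 knockout, and L1CAM at 187, 185 and 204 CPM in control against 83.7, 79.3 and 79.2 CPM in ATG7 KO. The axon receptor ROBO1 rose by 0.33 ± 0.03 and DCC by 1.00 ± 0.17. A block of 10 neighbouring tested genes on chromosome 5 (140794852 to 141180529) that holds protocadherin alpha genes had 8 members at least 2-fold lower. These genes share their 3′ exons, so their counts are not independent.

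Cadherins moved in opposite directions. CDH2, the neural cadherin, stood at 55.1, 54.7 and 53.9 CPM in the scrambled-guide libraries against 12.5, 13.9 and 14.1 CPM after ATG7 knockout, and CDH1, the epithelial cadherin, at 2.35, 2.55 and 2.72 CPM in control against 8.84, 7.01 and 8.1 CPM in ATG7 KO. CDH7 and CDH15 also fell, by 1.49 and 1.18. The factors that drive epithelial-mesenchymal transition did not move as a group: ZEB1 fell by 0.69, while ZEB2 (0.07), SNAI2 (−0.07) and TWIST1 (0.11) did not pass the test, though TWIST1 did without ATG7 KO replicate 1 (edgeR adjusted p = 0.0469). Keratins, the intermediate filaments of epithelia, rose in 8 of 11 tested genes, 7 at least 2-fold. KRT8 stood at 17.4, 17.8 and 18.7 CPM in the scrambled-guide libraries against 93.997, 101 and 98.9 CPM after ATG7 knockout and its partner KRT18 at 18.7, 18.4 and 17.7 CPM in control against 69.4, 69.6 and 71.5 CPM in ATG7 KO. KRT80 rose by 2.01 ± 0.08. KRT23 and KRT17 were almost not detected in control, with KRT17 at 0, 0.482 and 0.0961 CPM against 3.48, 3.62 and 2.62 CPM, and KRT17 has near-identical pseudogenes. KRT19 and KRT7 did not pass the test.

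Genes of mesenchymal cells rose at the same time. Of 29 tested, 24 rose and 1 fell, with a median of 0.92. AXL, a receptor kinase of mesenchymal tumour cells, stood at 17.3, 18.99 and 17.5 CPM in control against 55.2, 58.9 and 51.1 CPM in ATG7 KO, ANXA1 at 50.4, 51.4 and 48.6 CPM in control against 147, 149 and 146 CPM in ATG7 KO and the hyaluronan receptor CD44 at 33.9, 37.9 and 36.8 CPM in control against 74.8, 75.3 and 75.4 CPM in ATG7 KO. VIM, already abundant, rose by 0.35 ± 0.03. The actin-binding TMSB4X and the galectin LGALS1 were among the highest-level genes that rose at least 2-fold, TMSB4X from 76.96 to 205 CPM per kb and LGALS1 from 30.2 to 86.02 CPM per kb.

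Matrix genes moved both ways. Of 33 tested collagen genes 19 rose and 5 fell, 10 and 4 of them at least 2-fold. COL1A1, the main chain of fibrillar collagen, stood at 19.2, 19.1 and 20.9 CPM in control against 95.6, 107 and 94.7 CPM in ATG7 KO, and COL6A3 and COL5A1 rose by 2.12 ± 0.07 and 1.44 ± 0.04. COL4A3, a chain of specialised basement membranes, was the largest fall of the group, at 10.4, 9.68 and 10.3 CPM and 1.09, 1.54 and 1.66 CPM. Fibronectin, encoded by FN1, stood at 131, 144 and 135 CPM in control against 379.5, 409.6 and 406 CPM in ATG7 KO, and the proteoglycan LUM rose by 1.50 ± 0.05. PLAU, a plasminogen activator, rose by 1.57 ± 0.06. The matrix proteins PRELP (−2.58) and MFAP4 (−1.14) fell. Of 19 ADAMTS proteases 9 fell and 4 rose.

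Among receptor kinases RET rose, as given above, and several feedback genes of the ERK pathway rose too. A link between the 2 was not tested. SPRY4, an inhibitor of receptor signalling, stood at 1.89, 2.76 and 2.75 CPM in the scrambled-guide libraries against 12.4, 13.5 and 13.05 CPM after ATG7 knockout. DUSP6, the phosphatase of ERK, stood at 1.83, 2.34 and 2.4 CPM in control against 8.43, 7.38 and 8.81 CPM in ATG7 KO, and the ETS factors ETV4 and ETV5 rose by 2.07 ± 0.11 and 1.63 ± 0.06. EGR1 rose by 1.37 ± 0.10 and FOSL1 by 0.89 ± 0.13. Over 36 tested AP-1, immediate early and ERK feedback genes, 23 rose and 7 fell, with a median of 0.48. Among the falls, JUN stood at 61.3, 61.8 and 61.6 CPM in control against 35.96, 34.4 and 35.5 CPM in ATG7 KO, ATF3 fell by 0.97 and BTG2 by 0.95. The receptors themselves were split, with FGFR2 at 40.04, 37.3 and 37.7 CPM in control against 15.7, 13.9 and 14.4 CPM in ATG7 KO, EGFR lower by 0.78, and MET and FGFR1 higher by 0.31 ± 0.03 and 0.46 ± 0.05. Over 38 tested genes of receptor kinase signalling 16 rose and 17 fell.

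Genes of the NOTCH, WNT and TGF-beta pathways moved in both directions. In the NOTCH group 14 of 28 tested genes fell and 8 rose. HES1, the main target gene, rose from 10.6, 12.4 and 9.45 CPM to 21.7, 22.4 and 23.2 CPM, HES6, which opposes it, fell by 1.63, and the inhibitory ligand DLL3 fell by 0.80. In the WNT group 21 of 41 fell and 8 rose, with the ligand WNT4 at 6.01, 5.79 and 7.75 CPM in control against 0.819, 1.11 and 1.21 CPM in ATG7 KO. In the group of TGF-beta, BMP and activin genes 18 of 39 fell and 14 rose.

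The MYC genes differed from each other. MYC was abundant and stood at 1174, 1169 and 1158 CPM in control against 1149, 1169 and 1154 CPM in ATG7 KO, a log2 difference of −0.01 ± 0.02 that did not pass the test (edgeR adjusted p = 0.661), although scaling by library totals gave −0.05 and a call (adjusted p = 0.0419). MYCL, the family member often amplified in small cell lung cancer, stood at 228, 219.8 and 226 CPM in the scrambled-guide libraries against 77.3, 69.6 and 76.4 CPM after ATG7 knockout, a log2 difference of −1.59 ± 0.04 (edgeR adjusted p = 8.09e-19).

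The fall of MYCL was part of a run of neighbours, a pattern looked for after the values were seen. Of 14533 tested protein-coding genes placed on GRCh38, 12 in a row on chromosome 1 fell (39026318 to 39902256): NDUFS5, MACF1, BMP8A, PABPC4, HEYL, NT5C1A, HPCAL4, PPIE, BMP8B, OXCT2, TRIT1 and MYCL. No other of the 2747 runs of falls was longer, and rises had runs of up to 12 genes as well. The differences of the 12 genes ran from −1.89 (NT5C1A) to −0.72 (NDUFS5), with a median of −1.01. OXCT2 (39769523 to 39771348) lies within the span of BMP8B (39757182 to 39788861) on the same strand. PPIE, on the other strand, overlaps BMP8B too. How shared reads were counted is not given, so the counts of these neighbours may not be independent, nor the length of the run. PABPC4, a poly(A)-binding protein, stood at 4396, 4656 and 4628 CPM in the scrambled-guide libraries against 2259, 2241 and 2261 CPM after ATG7 knockout. TRIT1, a tRNA modifying enzyme, stood at 437, 413 and 440.0 CPM in control against 238, 234 and 232 CPM in ATG7 KO, and PPIE, a cyclophilin of the spliceosome, fell by 0.93.

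On both sides of the run the values were mixed. The next genes, AKIRIN1 before it and MFSD2A after it, differed by 0.11 and 0.31, and the 10 tested genes before and the 10 after had medians of 0.11 and 0.05, with 1 fall before the run, POU3F1 named above, and 3 after it. Levels in this part of chromosome 1 were high in control: the median over the 12 genes was 23.97 CPM per kb of exon, over the 10 before 53.9 and over the 10 after 59.5, against 4.55 for all protein-coding genes. In the double knockout libraries, which share the controls, PABPC4 stood at 3220.4, 3282 and 3199 CPM, TRIT1 at 348, 332 and 349 CPM and MYCL at 177, 170.1 and 177 CPM, below the controls. The 3 genes of the run for which this was not so were NDUFS5 (1388, 1311 and 1279 CPM, 1275, 1189 and 1322 in control) and HPCAL4 (8.83, 7.76 and 8.44 CPM, 9.06, 8.24 and 8.45 in control), which overlapped the controls, and HEYL (35.7, 35.1 and 33.997 CPM, 32.04, 32.01 and 32.8 in control), which lay above them. Most of the 10 genes before the run and of the 10 after it also lay below the controls in these libraries. AKIRIN1 stood there at 833, 858 and 846 CPM (933, 920 and 922 in control). MFSD2A stood at 69.5, 68.6 and 69.7 CPM (118.6, 119.5 and 118.8 in control). Others on these sides overlapped the controls or lay above them, as did POU3F1 at 214, 201 and 202 CPM. The longest runs of rises, 12 genes each, lay on chromosome 17 (CDR2L to MRPS7, median 0.37) and chromosome 8 (PDLIM2 to LOXL2, median 0.42). A run of 10 rises on chromosome 1 from PKN2 to GBP6, with a median of 1.11, holds the guanylate binding proteins.

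**Figure D5:**
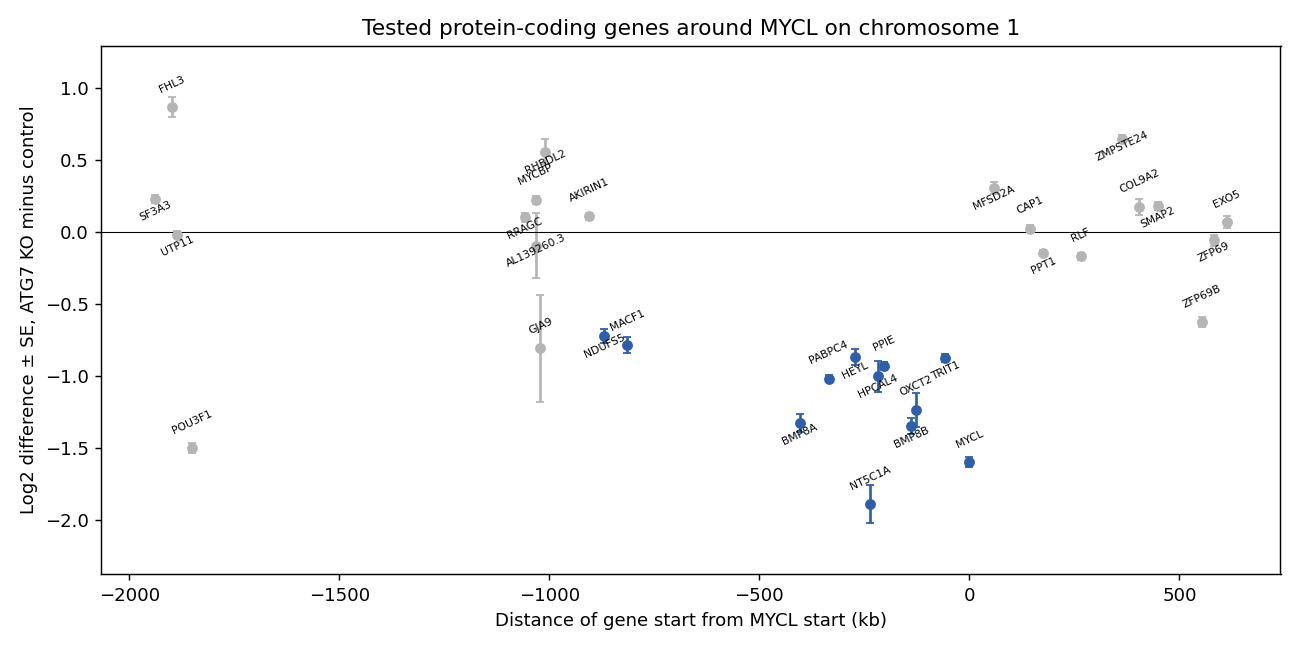
Log2 difference (ATG7 KO minus control) with its SE for 32 consecutive tested protein-coding genes around MYCL, by distance of the gene's start from that of MYCL in kb. The 12 genes of the run, in colour, lie between −1.89 and −0.72, and the 10 genes on each side, in grey, have medians of 0.11 and 0.05.

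Lysosome genes rose by small amounts. Of 47 tested, 32 rose and 5 fell, none of them 2-fold, with a median of 0.31. LAMP1, a protein of the lysosomal membrane, stood at 123, 131 and 131 CPM in control against 203, 195 and 199 CPM in ATG7 KO, CTSD, a cathepsin, rose by 0.52 ± 0.03, and TFEB, the factor that controls these genes, rose from 6.81, 6.03 and 6.82 CPM to 11.4, 11.3 and 10.1 CPM. Targets of NRF2, the factor of the oxidative stress response, rose in 24 of 39 tested genes and fell in 4, with a median of 0.25. Rises were frequent at high level in general: of the 3633 protein-coding genes with the highest CPM, 1979 rose and 771 fell. The lists were not matched for level. The NRF2 targets did not move evenly. NQO1, a quinone reductase, stood at 263, 263 and 268 CPM in control against 535, 524 and 511 CPM in ATG7 KO, and TXNRD1 rose by 0.39 ± 0.02. GCLM and SRXN1 differed by 0.03 and −0.01 and did not pass the test, and HMOX1, which breaks down haem, fell by 0.61.

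Of 25 tested genes of iron, copper and water handling, which include STEAP4 and AQP1, 14 rose and 5 fell. FTH1, the heavy chain of ferritin, stood at 1073, 1056 and 1152 CPM in control against 1491, 1464 and 1449.9 CPM in ATG7 KO, FTL rose by 0.63 ± 0.07 and the transferrin receptor TFRC by 0.57 ± 0.02. Ferritin genes have many pseudogenes, so their counts are uncertain. Of 36 genes of cholesterol and fatty acid synthesis 26 rose and 4 fell, with SCD higher by 0.57 ± 0.02, while INSIG1 did not pass the test (−0.01). Targets of ATF4, the factor of the amino acid response, fell in 21 of 37 and rose in 7. ASNS, asparagine synthetase, stood at 223, 213 and 215 CPM in control against 137, 133 and 135 CPM in ATG7 KO, and TRIB3 did not pass the test.

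Cell cycle genes moved by small amounts. Of 40 tested, 22 rose, none of them 2-fold, and 8 fell, 2 at least 2-fold, with a median of 0.10. Among the 3633 protein-coding genes with the highest CPM, 1979 rose and 771 fell, with a median of 0.11. The larger falls were in regulators of the start of the cycle. CDK6 stood at 181, 181 and 170.2 CPM in control against 83.2, 85.7 and 82.8 CPM in ATG7 KO, CCND2 fell by 1.24, and CDKN1A, the inhibitor p21, fell by 0.91, whereas CCND1 differed by −0.04 and did not pass the test, except when scaled by library totals (−0.09, edgeR adjusted p = 0.021). Genes of cell death rose in 19 of 32 tested members and fell in 6. TNFSF10, the death ligand TRAIL, stood at 35.2, 37.1 and 33.7 CPM in control against 111, 111 and 112 CPM in ATG7 KO, the inflammatory caspase gene CASP4 rose by 1.88 ± 0.09, CASP8 rose by 0.90 ± 0.10, and BCL2 fell by 0.87.

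Gene classes differed in how often they fell by at least 2-fold. Falls of any size were called in similar shares: 4321 of 14533 protein-coding, 265 of 912 long intergenic and 295 of 1127 antisense genes. At least 2-fold lower were 7.86% of tested protein-coding genes, 14.4% of long intergenic noncoding RNAs and 11.7% of antisense genes, and at least 2-fold higher were 4.42% and 6.03% of the protein-coding and intergenic genes. Of the 3633 protein-coding genes with the longest span (81992 bases and more) 13.6% were at least 2-fold lower, against 4.82% to 6.63% in 3 equal groups of shorter genes. By level, 18.9% of the 3634 protein-coding genes with the lowest CPM and 0.963% of the 3633 with the highest were at least 2-fold lower. At least 2-fold higher were 8.92% and 1.46% of the same groups, so large changes both ways were more frequent at low level. The part of level in the differences between gene classes was not tested. Rises of any size were called in 609 of the lowest group and in 1979 of the highest. The zinc finger genes named ZNF, repressors of repeats and other DNA, seldom moved by 2-fold: of 476 tested, 1 was at least 2-fold higher and 10 lower. Host genes of small nucleolar RNAs fell in 13 of 25, with SNHG29 at 818, 797 and 888 CPM in control against 348, 356 and 327 CPM in ATG7 KO. Mitochondrial ribosomal protein genes rose in 57 of 78 and cytosolic ones fell in 37 of 79, with medians of 0.22 and −0.11. One noncoding gene, AP000459.2 on chromosome 21, had 84, 58 and 71 counts in control and none in ATG7 KO, at least 70.1-fold lower against a floor of 3 counts over the group.

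Markers of other cell types were read for their level. Defining markers of blood cells (CD3D, CD3E, MS4A1, LYZ, HBB) had no count in any of the 6 libraries, and PTPRC stood at 0.183, 0.276 and 0.064 CPM in control against 1.4, 1.48 and 1.53 CPM in ATG7 KO. The summed level of the 5 tested blood markers was 7.11 to 8.17 CPM in control against 10.6 to 11.7 CPM in ATG7 KO. Endothelial markers summed to 2.93 to 3.33 and 5.43 to 6.13 CPM over 6 tested genes, and 2 epithelial and airway markers to 4.94 to 5.20 and 12.6 to 12.9 CPM. The 10 tested fibroblast markers summed to 136 to 148 CPM in control against 372 to 399.8 CPM in ATG7 KO, with 5 higher and 1 lower. That sum is made mostly of LUM and COL1A1, named above, while PDGFRA (−0.04) and PDGFRB (0.36) did not pass the test and THY1 and TCF21 had at most 7 counts in a library. The part of such markers in the rise of the matrix genes was not tested.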

How the data were processed

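Total RNA of DMS273 cells (400 ng) was depleted of rRNA and made into strand-specific dUTP libraries with 12 PCR cycles, per the labels' protocols. The submitters' processing notes name HISAT2 and hg38. The sources used here do not say how reads were counted, with which annotation or strand rule. The deposited files hold raw counts, whole numbers for each gene in each library, which the authors had not scaled judging by the values. Of 67140 genes listed, 31038 had no count. The 362598 missing cells were read as 0, and 1 unlabelled column was left out.

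Counts were tested with edgeR 4.0.16 in R 4.3.3 (filterByExpr, minimum count 10, 18847 genes kept, TMM factors 0.977 to 1.01, robust quasi-likelihood fit of all 9 libraries by group, 6 residual degrees of freedom). The biological coefficient of variation was 6.39% in common, and counts of libraries of a group differed by more than sampling alone gives. Gene IDs were matched to GENCODE 29 (58503 of them) for GRCh38 positions, type and exon length, and promoters come from RefSeq. The scripts were tested on simulated counts. The alternatives tried were library totals, relative log expression factors, no low-count filter, a mean of at least 1 CPM, DESeq2 1.42.0, a fit of 6 libraries, a replicate block, each library left out, and for large changes glmTreat.

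The 52 gene lists were written from textbook knowledge, and the families were defined by symbol. This comparison and the lists were chosen with earlier results of these data known. Several symbol patterns were corrected after their members were seen, because they caught other genes. Genes are named by rule: ATG7, key genes of the lists, up to 5 members of a list or named family with the largest change among those called, at 1 CPM or more and without overlap of libraries, the member with the highest level, up to 5 exceptions, the 20 largest rises and falls above 5 CPM, and the 10 highest-level genes changed 2-fold each way. Families plotted are, of those with at least 8 tested members, the 8 each way with the largest share of genes changed 2-fold, and not each is described. The genes of the runs of neighbours, BTG2, CACNA1G, CASP8, CD47, CDH15, COL5A1, EIF2AK2, FGFR2, FOSL1, FTH1, GABRB2, GAP43, HES6, HLA-B, INSIG1, JAK1, KCND3, KRT19, KRT7, PROX1, SRXN1, ST18, STAT3, TRIB3, UNC13A, UNCX and AP000459.2 fall outside this rule and were picked with their values in view. Results on some genes are not reported here.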

Additional observations from a re-analysis of the deposited data

How the results depend on the processing

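Over the alternatives other than glmTreat, 4676 to 5544 genes were called higher and 4672 to 5948 lower, the extremes coming from library totals, relative log expression and DESeq2. Genes at least 2-fold higher numbered 510 among the 15239 genes with a mean of at least 1 CPM, where fewer genes were tested. With glmTreat, which asks for a change beyond 2-fold, 394 were higher and 691 lower. With 1 library left out at a time, 5061 to 5262 genes were higher, 4810 to 5009 lower, 792 to 818 at least 2-fold higher and 1505 to 1595 at least 2-fold lower. Of the larger lists, chemokines had 9 of 12 tested members higher with a mean of at least 1 CPM, since fewer were tested. The MYC network had 7 of 12 lower with library totals, and the cause was not tested. Over the 50 lists compared, 4 comparisons with an alternative were marked as moved and 646 as the same. For the plotted families these were 4 and 204. No named gene reversed its direction with a call. Scaling by library totals moved the median of all genes by −0.04 on the log2 scale.

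Libraries with the same replicate number did not deviate together (correlations −0.01, −0.00 and −0.06), so the numbers were not taken as pairs. With the replicate block 5306 genes were higher and 5258 lower, with 779 and 1544 of them at least 2-fold, and the calls lost among named genes were the readthrough genes RAB4B-EGLN2 and ABHD14A-ACY1. Depth limits the low genes: the interferon ligand genes were below the filter, and a gene listed at 0 can still be transcribed at a level these libraries do not show.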
